A study of Mus musculus with 4 samples.

Results

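CAR cells, the Cxcl12-abundant reticular stroma of the bone marrow, can be divided by the extra genes they carry, and the cells described here are those left over when the subset genes are absent or nearly so. They were 168 of the 1020 CAR cells and of the 2825 cells kept in all: 70 cells from immobilized mice and 98 from control mice. A cell entered the CAR gate with at least 50 counts of Cxcl12 per 10000 UMIs (unique molecular identifiers, 1 per captured transcript; CP10k) and under 100 CP10k of the osteocalcin genes Bglap and Bglap2 together. It was then kept if Fabp4, Scd1 and Plin1 together were under 10 CP10k, if Cxcl14 and Kit together had fewer than 3 UMIs, and if Aldh1a2 and Nrg3 together had fewer than 3 UMIs. These cells are called unmarked CAR cells below, and the 852 cells of the gate that passed a subset limit are called the other CAR cells. The cells were thus chosen by the measured levels of 10 genes, so those levels, and every comparison with the other CAR cells, are a description.

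All animals were C57BL/6J mice of the genotype Tnfsf11tTA/+; LC1; Rosa26LSL-tdTomato, in which Tnfsf11, which encodes the osteoclast-inducing cytokine RANKL, carries a transactivator in 1 of its alleles that drives a Cre and so switches on tdTomato for good. Doxycycline, which silences the transactivator, was given from E0 until birth, so the label marks cells in which the locus was active after birth and the descendants of such cells. Mice were 8 weeks old when 1 group had its hindlimbs immobilized for 2 weeks, and both groups were collected at 10 weeks; 6 immobilized mice made up 1 pool and 4 control mice the other. Live tdTomato-positive cells lacking CD45.2 and Ter119 were sorted from the bone and flushed marrow of femurs and tibias of both limbs. Among the kept cells 42 in the immobilized and 34 in the control pool were nevertheless rich in haematopoietic markers.

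CAR cells surround the marrow sinusoids and supply the chemokine Cxcl12 and the stem cell factor Kitl to blood-forming cells. They express the leptin receptor Lepr, and their lineage can give rise to both bone-forming cells and marrow adipocytes, so genes of either direction are often read as signs of priming within the same stromal population. RANKL made by stromal and bone cells drives osteoclast formation, and bone loss from disuse is the setting of the comparison.

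With 1 pool per group there was no replicate, and no test between the groups could be made. Intervals below are 95% intervals for counting error alone, treating UMIs as independent. The sequencing lanes of each pool held 9960011 and 10084134 UMIs for immobilized mice and 10732720 and 10860328 UMIs for control mice. Lane 2 is a repeat run on the same cells, with 1747 of 1751 barcodes shared in the immobilized pool and 1617 of 1620 in the control pool, so values come from lane 1. The 2 pools had 3 barcodes in common. Males and females were mixed in both pools: among all kept cells whose sex could be called, 60.1% were female in the immobilized and 72.4% in the control pool, and among unmarked CAR cells 28.8% (15 female, 37 male cells) and 46.6% (34 female, 39 male cells). How much of any difference between the pools follows their sex mix cannot be told apart from the treatment, except where values within each sex are given.

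The promoter of Clstn2 is printed because this gene, a synaptic calsyntenin and one of the genes by which these cells were proposed, had the largest ratio between the pools of all genes eligible for ranking in unmarked CAR cells. The sequence is RefSeq's on GRCm38.p6, minus strand, chr9:98033118-98033417, from 250 bases before to 50 bases after the gene's start, with the cyclic AMP response element in capitals.
Clstn2: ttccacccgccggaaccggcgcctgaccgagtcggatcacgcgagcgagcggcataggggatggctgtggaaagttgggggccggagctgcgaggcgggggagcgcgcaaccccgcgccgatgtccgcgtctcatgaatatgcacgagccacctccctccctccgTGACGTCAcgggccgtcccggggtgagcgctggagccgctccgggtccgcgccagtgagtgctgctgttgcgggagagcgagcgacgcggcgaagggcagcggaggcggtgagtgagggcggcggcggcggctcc
Windows of this kind were searched on both strands for TGACGTCA and for its core TGACG, which the full element contains once on each strand. The full element was present in 588 of 32851 promoter windows (1.79%) and the core in 6837 (20.8%). Of the windows of Clstn2, Frmd5, Vdr, Mmp13 and Tnfsf11, that of Clstn2 was the 1 of 5 with the full element, which begins 85 bases before the gene's start, and the other windows held no core. A match is a string of letters, not a measured binding site.

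Unmarked CAR cells made up 5.00% of kept cells in the immobilized pool (70 of 1399, interval 3.92 to 6.28) and 6.87% in the control pool (98 of 1426, 5.61 to 8.31). Within the CAR gate, itself smaller in the immobilized pool (386 cells) than in the control pool (634 cells), they were 18.1% (14.4 to 22.3) and 15.5% (12.7 to 18.5), intervals that overlap. Most cells of the gate left through Cxcl14 and Kit, which 306 immobilized and 497 control cells carried at 3 UMIs or more. Aldh1a2 and Nrg3 removed 80 and 187 cells, and the lipid genes 14 and 11, with overlaps between the subsets.

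The share of CAR cells that stayed unmarked depended strongly on how deeply a cell was sequenced. Below 2000 UMIs it was 53.3% (8 of 15 cells) in the immobilized and 50% (27 of 54) in the control pool. It was 29.0% (40 of 138) and 21.5% (57 of 265) between 2000 and 4000 UMIs, and 12.3% (22 of 179) and 5.02% (13 of 259) between 4000 and 8000. At 8000 UMIs or more, 0 of 54 immobilized cells were unmarked, which allows a share of up to 5.56%, and 1 of 56 control cells. The share was lower in each deeper band of both pools. In the 3 bands below 8000 UMIs the immobilized pool had the higher share, each time with overlapping intervals, which were closest to parting at 4000 to 8000 UMIs (7.87 to 18.015 in the immobilized and 2.70 to 8.43 in the control pool).

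**Figure D1:**
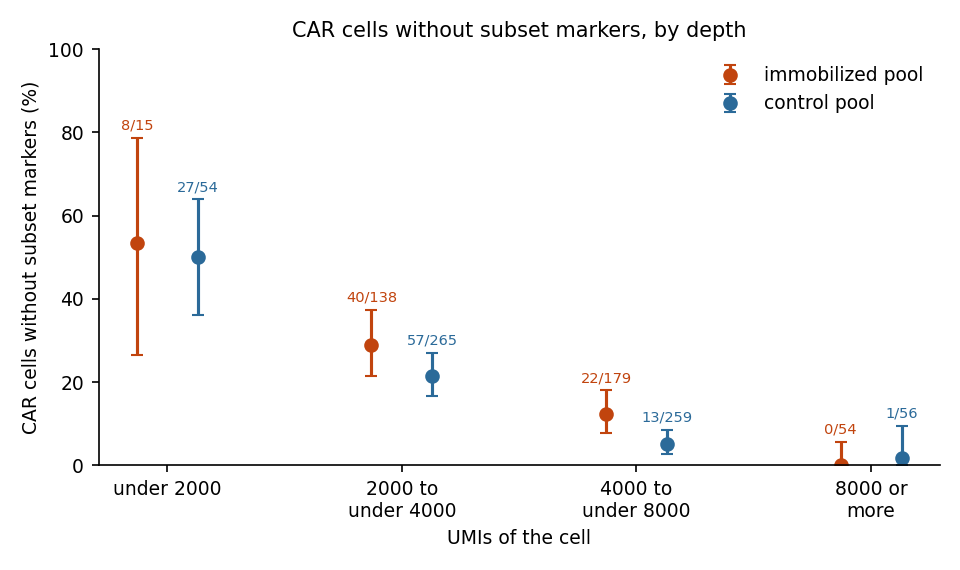
Percentage of CAR cells without subset markers (y axis) in 4 bands of UMIs per cell (x axis), with the immobilized pool in orange left of the control pool in blue. Points are shares, bars are 95% Clopper-Pearson intervals (for 0 of 54 cells the bar ends at the limit that 3 cells would give), and the numbers are unmarked cells over CAR cells; the share drops with depth, to 12.3% and 5.02% at 4000 to 8000 UMIs.

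Unmarked CAR cells were accordingly shallower than the other CAR cells, with a median of 3363.5 UMIs and 1827 genes per cell in the immobilized and 2489.5 UMIs and 1477 genes in the control pool, against 4808 UMIs and 2399.5 genes and 4185 UMIs and 2163.5 genes in the other CAR cells. When every cell was thinned to 2000 UMIs before the rule was applied, 136 of 374 immobilized CAR cells (36.4%) and 168 of 580 control CAR cells (29.0%) came out unmarked. With the pair limits set at 6 CP10k in place of 3 UMIs, so that they scale with depth, 64 and 70 cells remained, 16.6% and 11.04% of the gate. Membership was also unstable between runs of the same cells: 54 of the 70 immobilized and 69 of the 98 control cells were unmarked again in lane 2, while 13 and 24 became other CAR cells and 3 and 5 were no longer in the CAR gate.

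The limits that chose the cells cut through a continuum. Cxcl12 ran from 50.5 to 284 CP10k around a median of 91.8 in unmarked immobilized cells, and from 53.2 to 438 around 126 in unmarked control cells. Just inside the gate, at 50 to 60 CP10k, lay 7 cells in each pool, and the closest cells outside it had 49.7 and 45.9 CP10k. No cell was lost to the osteocalcin limit, the highest unmarked values being 28.2 CP10k in the immobilized and 85.2 CP10k in the control pool. Of Cxcl14 and Kit together, 22 immobilized cells had no UMI, 25 had 1 and 23 had 2, against 33, 34 and 31 control cells. Of Aldh1a2 and Nrg3 together, 56, 12 and 2 immobilized cells had 0, 1 and 2 UMIs, against 60, 21 and 17 control cells. Just outside, 27 immobilized and 41 control cells of the CAR gate had exactly 3 UMIs of the Cxcl14 pair, and 20 and 43 had exactly 3 of the Aldh1a2 pair. The lipid genes reached at most 5.47 and 3.06 CP10k inside, and the closest cells outside had 10.5 and 10.0 CP10k. Only 15 immobilized and 18 control cells had no UMI of any of the 7 subset genes, so most unmarked cells carried traces of a subset.

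All 14 general CAR markers, of which Cxcl12 is in the rule, were detected in both pools. Their summed level was 23253 CPM (UMIs of a class and pool scaled to 1000000) in unmarked immobilized cells and 29148 CPM in unmarked control cells, against 31250 and 35408 CPM in the other CAR cells and 1429 and 1177 CPM in cells outside the gate. Without Cxcl12 the sum over the other 13 was 13154 and 15312 CPM in unmarked cells, against 15852 and 17609 CPM in the other CAR cells and 1120 and 919 CPM outside the gate. Markers of blood cells and endothelium, apart from granulocyte and erythroid ones, were nearly absent. The T cell list had 0 UMIs in both pools, the endothelial list 2 and 6, the macrophage list 3 and 9 and the B cell list 1 and 1. The pericyte and smooth muscle list had 64 and 63 UMIs (254 and 231 CPM), against 223 and 187 CPM in the other CAR cells. Cells outside the gate had 180 and 278 CPM of that list. The fibroblast list had 0 and 6 UMIs and the cycling list 5 and 6, and the granulocyte list had 95 and 78 (377 and 286 CPM, against 349 and 471 CPM in the other CAR cells). Adipocyte markers, 3 of which are in the rule, stood at 210.5 and 439.5 CPM, against 1409 and 1361 CPM in the other CAR cells. Erythroid markers had 304 and 254 UMIs, at 1207 and 930 CPM, higher than the 312 and 84.8 CPM of the other CAR cells. In each pool 1 unmarked cell exceeded 100 CP10k of them. Scrublet, a doublet caller, marked 1 unmarked cell in each pool.

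The genes by which these cells were proposed had no common direction against the other CAR cells. Lepr stood at 1720 CPM in unmarked immobilized cells and 2308 CPM in other immobilized CAR cells (log2 ratio -0.42), and at 1677 and 2123 CPM in control cells (-0.34). Clstn2 stood at 234 and 266 CPM in the immobilized pool (-0.17, -0.60 to 0.21) and at 22.0 and 29.9 CPM in the control pool (-0.34, -1.93 to 0.74), and both signs turned in lane 2, at 0.48 and 0.40. Lrrn1, a leucine-rich repeat membrane protein of neurons, had 4 UMIs in unmarked immobilized cells, 15.9 against 80.1 CPM in other CAR cells (log2 ratio -2.17, interval -4.23 to -0.95), and 10 UMIs in unmarked control cells, 36.6 against 29.9 CPM (0.35, -0.82 to 1.25; -0.12 in lane 2). Igfbp3, a binding protein of insulin-like growth factors stood at 262 and 253 CPM in the immobilized pool (0.06, -0.35 to 0.42; -0.09 in lane 2) and at 194 and 132 CPM in the control pool (0.57, 0.11 to 0.98; 0.64 in lane 2). The cells are therefore named here by what they lack.

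What unmarked CAR cells had more of, in both pools, were genes of osteo-primed stroma, the marrow stroma poised toward bone formation. Over 9 such markers (Wif1, Limch1, Tnc, Mmp13, Spp1, Postn, Alpl, Kcnk2 and Ndnf) the summed level was 15632 CPM in unmarked immobilized cells and 6345 CPM in other immobilized CAR cells (log2 ratio 1.30, interval 1.25 to 1.35), and 7478 and 5424 CPM in control cells (0.46, 0.40 to 0.53). In the immobilized pool 8 of the 9 were past 2-fold higher, and in the control pool 2 of 9. Over all genes with 50 UMIs or more, 2.37% (151 of 6360) were past 2-fold higher in unmarked cells of the immobilized pool and 2.15% (164 of 7637) in the control pool, and the rule used this contrast, so nothing is read from these counts. The ratio of the control pool varied with how depth was handled. After thinning to 2000 UMIs before the rule the log2 ratio of the sum was 1.02 in the immobilized and 0.01 in the control pool. Thinning also changed which cells were unmarked, 168 in the control pool in place of 98. With pair limits of 6 CP10k the ratios were 1.55 and 0.81. With unmarked cells of 3000 UMIs or more they were 1.40 and 0.87.

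These levels were carried by a minority of cells with very high values. The marker sum per cell was split at 100 CP10k, a limit chosen after the values were seen. In the immobilized pool 31 of 70 unmarked cells lay at or above it (44.3%, interval 32.4 to 56.7), against 19 of 98 in the control pool (19.4%, 12.1 to 28.6). In lane 2 the shares were 39.4% (28 of 71) and 19.4% (18 of 93). Among the other CAR cells the shares were 13.6% (43 of 316, 10.0 to 17.9) and 16.04% (86 of 536, 13.04 to 19.4). In the immobilized pool the unmarked cells fell into separate ranges, with no cell between 66.7 and 127 CP10k. In the control pool the highest cell below the limit had 93.5 and the lowest above it 116 CP10k, and 4 cells lay between 80 and 120. Of the Tnc UMIs in unmarked cells, 1205 of 1308 in the immobilized and 650 of 900 in the control pool lay in the cells above the limit.

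**Figure D2:**
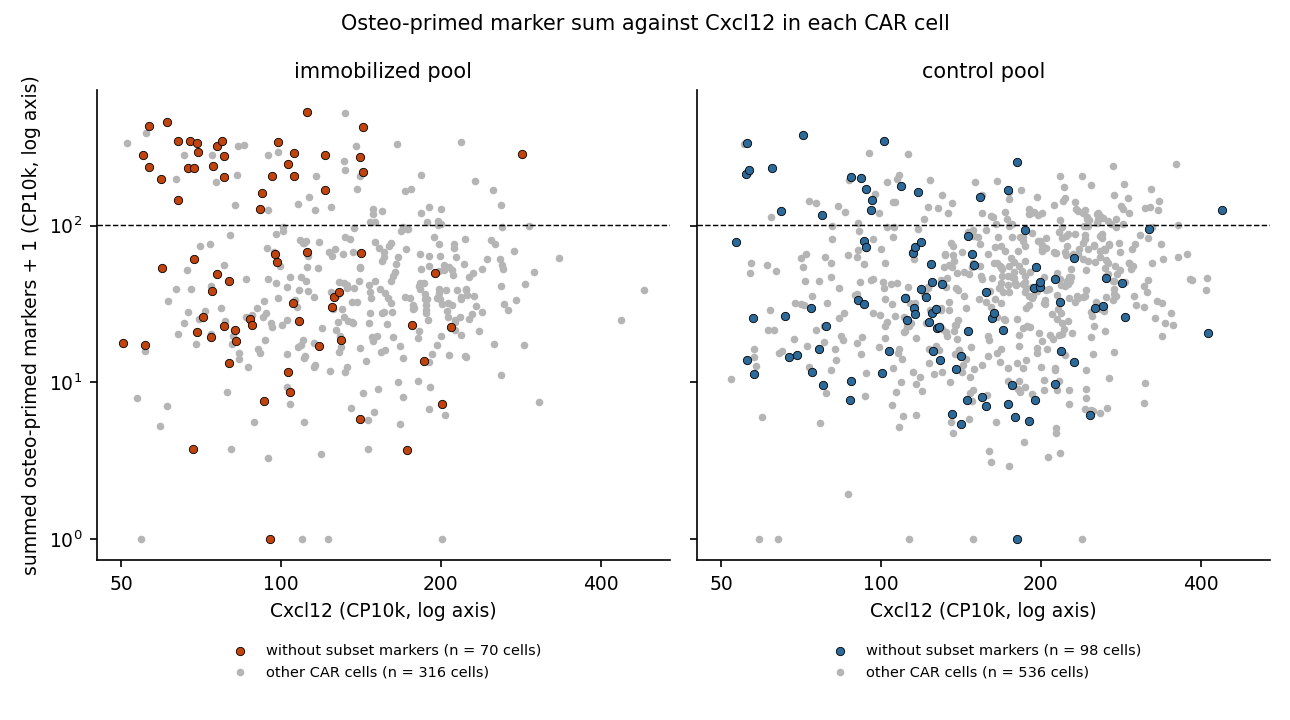
Each point is 1 CAR cell of the immobilized pool (left) or the control pool (right), with Cxcl12 on the x axis and the summed 9 osteo-primed markers plus 1 on the y axis, both in CP10k on log axes; coloured points are CAR cells without subset markers, grey points the other CAR cells, and the dashed line is the limit of 100 CP10k. In the immobilized pool 31 of 70 coloured points lie above the line, many of them at low Cxcl12, against 19 of 98 in the control pool.

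The high cells sat toward the lower end of Cxcl12. At 50 to 100 CP10k of Cxcl12, 21 of 42 unmarked immobilized cells (50%, 34.2 to 65.8) and 12 of 30 unmarked control cells (40%, 22.7 to 59.4) were at or above the limit. At 100 CP10k of Cxcl12 or more these were 10 of 28 (35.7%, 18.6 to 55.9) and 7 of 68 (10.3%, 4.24 to 20.1). Unmarked immobilized cells lay more often in the low band, 42 of 70 against 30 of 98 control cells, and cells outside the CAR gate were often high too, 460 of 1013 (45.4%) in the immobilized and 232 of 792 (29.3%) in the control pool. Where the gate is placed therefore moves these shares, and its part in the difference between the pools was not tested beyond the gates tried.

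Cells above and below the limit differed in much more than the 9 markers. As a range cut from a score, they are not called types. In the high range the atypical cadherin Fat3 had 65 of the 65 UMIs that all unmarked immobilized cells held, and 28 of 29 in control cells. Cadm1, a cell adhesion molecule, stood at 758 and 895 CPM in the high range and at 24.0 and 34.2 CPM in the low range. Nlgn1, a neuroligin of synaptic contacts, stood at 703 and 807 CPM in the high range and had no UMI in the low range of either pool. Runx2, the transcription factor of osteoblast commitment, stood at 4108 and 3946 CPM in the high range and at 2332 and 2323 CPM in the low range, each pair nearly equal between the pools.

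Genes of the adipocyte side ran the other way. Lpl, lipoprotein lipase, stood at 174 and 264 CPM in the high range of the immobilized and the control pool, and at 1989 and 2309 CPM in the low range. Adipoq, adiponectin, had 0 UMIs in the 31 high immobilized cells and 9 UMIs, 132 CPM, in the 19 high control cells, while the low range had 264 and 522 CPM. Lepr was lower in the high range too, at 988 and 293 CPM against 2460 and 2138 CPM in the low range. The median Cxcl12 per cell was 78.0 and 93.7 CP10k in the high range and 97.6 and 136 in the low range, and the median sum of the 14 CAR markers 187 and 203 against 265 and 325 CP10k. The low range, 39 cells of the immobilized and 79 of the control pool, thus had the higher levels of CAR markers in both pools.

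**Figure D3:**
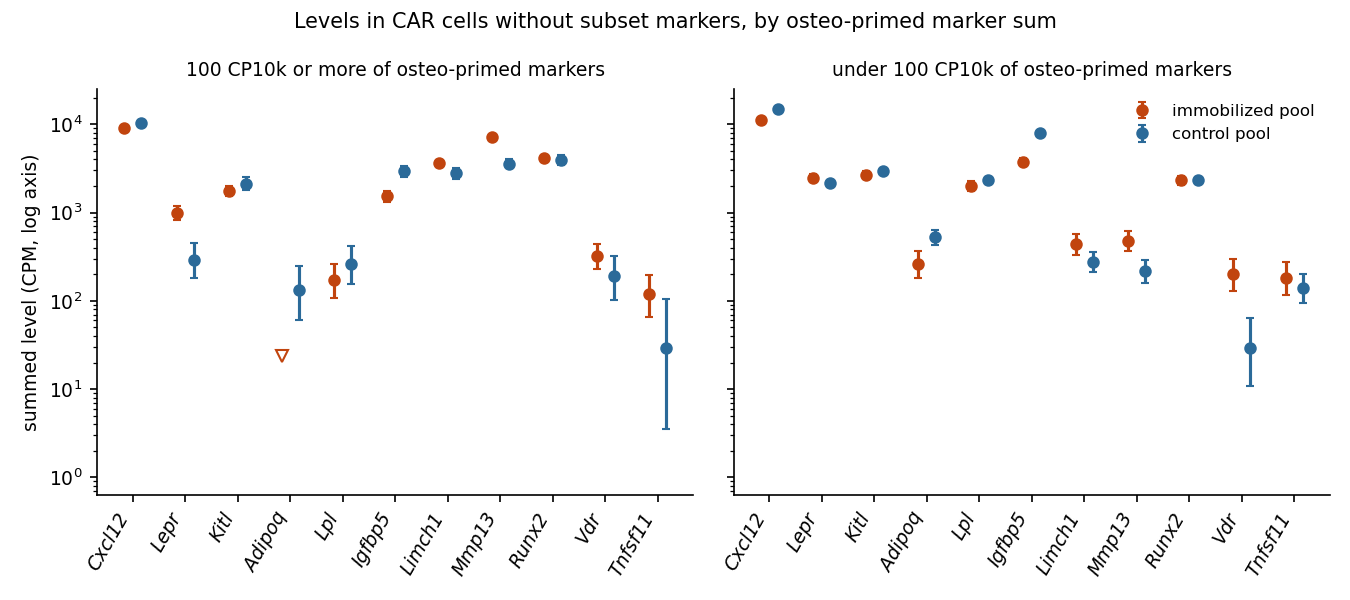
Summed levels of 11 genes in CPM on a log axis, in unmarked CAR cells at 100 CP10k or more of osteo-primed markers (left) and in those under it (right), with the immobilized pool in orange left of the control pool in blue and 95% Poisson intervals as bars; the open triangle marks a gene with 0 UMIs at the level that 3 counts would give. Igfbp5 is lower in the immobilized pool in both panels (1533 and 2934 CPM, 3745 and 7888 CPM), while Runx2 is nearly equal in each.

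The 10 genes highest in unmarked over other CAR cells were ranked by the mean log2 ratio over both pools. Fat3 stood at 258 CPM in unmarked immobilized cells and 24.3 in the other CAR cells (log2 ratio 3.41, interval 2.83 to 4.00), and at 106 and 64.7 CPM in control cells (0.74, 0.09 to 1.29). Angpt4, an angiopoietin, stood at 342 and 82.9 CPM (2.05, 1.64 to 2.44) and at 220 and 57.1 CPM (1.95, 1.49 to 2.38). Mmp13, collagenase 3 of bone and cartilage, stood at 3836 and 881 CPM (2.12, 2.00 to 2.24) and at 1062 and 485 CPM (1.13, 0.94 to 1.32). Cadm1 followed with log2 ratios of 2.48 and 1.39, Rcan2, an inhibitor of calcineurin, with 2.05 and 1.29, and Lrp4, a co-receptor in Wnt signalling that binds sclerostin, with 2.05 and 1.10. Ppfibp2 had 1.69 and 2.23, the prostacyclin synthase Ptgis 1.89 and 1.69, Slc35f3 1.72 and 1.86 and the sphingomyelin synthase Sgms2 2.00 and 1.26.

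Without the cells at or above the limit, 8 of the 9 genes that could be followed were below the other CAR cells in the immobilized pool, and 3 of 9 in the control pool, where the other 6 stayed above them. Mmp13 was itself a marker of the split and was not followed. The other CAR cells kept their own high cells in that comparison. Slc35f3 was the gene that stayed above them in the immobilized pool. Outside the CAR gate Fat3 stood at 1698 CPM in the immobilized and 1629 CPM in the control pool and Cadm1 at 1596 and 1328 CPM.

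**Figure D4:**
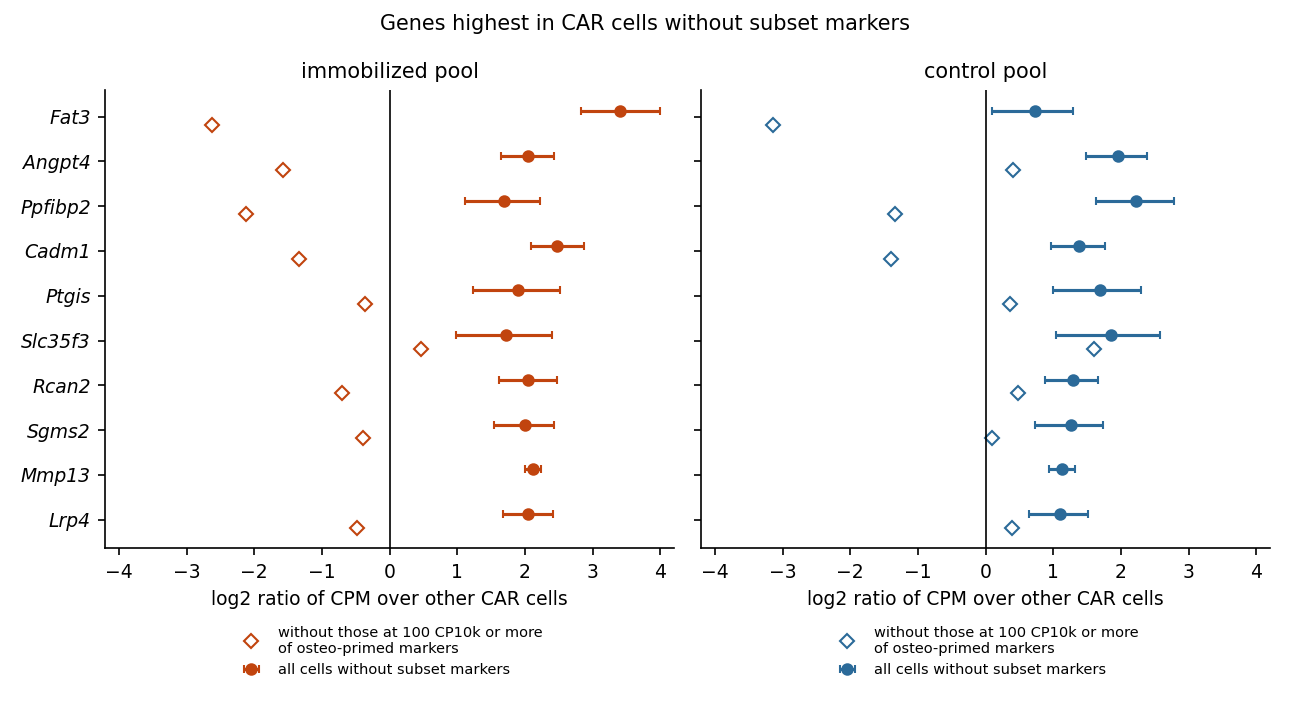
The 10 genes ranked highest in CAR cells without subset markers, as log2 ratios of their CPM over the other CAR cells in the immobilized pool (left) and the control pool (right). Filled circles are all unmarked cells with 95% intervals; open diamonds leave out cells at 100 CP10k or more of osteo-primed markers, after which 8 of 9 ratios are below 0 in the immobilized and 3 of 9 in the control pool (Mmp13, a marker of the split, has no diamond).

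On the other side, 32 genes (0.509% of 6291) were past 2-fold higher and 91 (1.45%) past 2-fold lower in unmarked cells in both pools, and 6 of those lower were genes of the rule. Several lower genes are known from adipocyte-primed CAR cells. Adipoq stood at 131 CPM in unmarked immobilized and 554 CPM in other immobilized CAR cells, and at 425 and 1068 CPM in control cells. The haptoglobin gene Hp stood at 679 and 2085 CPM in the immobilized pool and at 1080 and 2387 CPM in the control pool. Of 18 lipid genes outside the rule, 10 were measured in each pool, and 6 were past 2-fold lower in the immobilized and 3 in the control pool, with median log2 ratios of -1.505 and -0.64 against -0.04 and 0.01 over all genes. Over all genes measured, 7.47% were past 2-fold lower in the immobilized and 6.01% in the control pool.

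The 10 genes ranked lowest had few UMIs in unmarked cells in lane 1. The peroxisomal fatty acid transporter Abcd2, the glutathione transferase Gsta4 and the glutamate receptor Gria3 had 0 UMIs in lane 1 of the immobilized pool. A floor of 3 counts over the pool would lie 3.41-fold, 4.40-fold and 2.51-fold below the other CAR cells. The lane 1 intervals of their log2 ratios reached up to -1.43, -1.81 and -0.98. In lane 2 the log2 ratios were -0.48, -2.50 and -1.62, so the distance of Abcd2 was much smaller in the repeat run. In control cells they had 1, 7 and 4 UMIs. The receptor tyrosine kinase Ret had 1 UMI in each pool, Zfp503 had 1 and 3, Il17d 1 and 4 and Phlda1 1 and 7. In the immobilized pool Ret had a log2 ratio of -3.15 in lane 1 and -0.63 in lane 2. Phlda1 had -2.47 and -0.70. Cygb, the haem protein cytoglobin, stood at 19.9 CPM in unmarked and 112 CPM in other immobilized CAR cells (-2.36), and at 33.0 and 124 CPM in control cells (-1.84). Serpina3n, a secreted protease inhibitor, had log2 ratios of -2.92 and -1.22, and the matrix protein Fndc1 -1.55 and -2.44.

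Between the pools, 1132 genes had 50 UMIs or more in unmarked CAR cells of at least 1 pool. Of these 21 (1.86%) were past 2-fold higher and 25 (2.21%) past 2-fold lower in the immobilized pool, and the median log2 ratio was -0.02. In the other CAR cells, with more cells and 7704 genes, 0.883% were past 2-fold higher and 1.34% past 2-fold lower. Genes with few UMIs enter such a count easily, since 50 UMIs spread over 70 or 98 cells can rest on a handful of cells.

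Clstn2 had 59 UMIs (234 CPM) in 12 of 70 unmarked immobilized cells and 6 UMIs (22.0 CPM) in 4 of 98 unmarked control cells, a log2 ratio of 3.31 (interval 2.21 to 4.92). The immobilized pool was higher, but 89.8% of its UMIs lay in 7 cells. All of them lay in the low range of the osteo-primed sum, where the level was 471 CPM in the immobilized and 29.3 CPM in the control pool. The other CAR cells had nearly the same ratio, 3.14 (266 and 29.9 CPM). Frmd5, a FERM domain protein that links membrane and cytoskeleton, behaved alike, with 56 and 7 UMIs (222 and 25.6 CPM; 3.03, 1.98 to 4.50) in 9 and 4 cells, and 3.09 in the other CAR cells. The heparan sulfate sulfotransferase Hs3st5 had 60 and 20 UMIs (238 and 73.2 CPM, log2 ratio 1.68, 0.95 to 2.51) in 14 and 4 cells. Its log2 ratio was 7.04 in lane 2, and the sexes differed. Female cells had 7 and 16 UMIs of Hs3st5 (-0.35, -1.92 to 0.96) and male cells 47 and 4 (3.12, 1.83 to 5.21). For Clstn2 and Frmd5 the cells called female gave too few UMIs to compare, with 0 and 1 UMIs of Clstn2 and 2 and 4 of Frmd5. The cells called male had 13 and 1 UMIs of Clstn2 and 52 and 3 of Frmd5. Most UMIs of Clstn2 lay in cells whose sex could not be called.

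Vdr, the receptor through which vitamin D raises RANKL, lies on the minus strand of chromosome 15 (97854425 to 97910630 on GRCm38). It had 66 UMIs (262 CPM) in 27 unmarked immobilized cells and 19 UMIs (69.6 CPM) in 15 unmarked control cells, a log2 ratio of 1.89 (1.16 to 2.73). It was higher in the immobilized pool within both sexes, with 2.91 for females and 1.31 for males, and in both ranges of the osteo-primed sum, at 324 and 191 CPM in the high range (0.73, -0.16 to 1.79) and 200 and 29.3 CPM in the low range (2.68, 1.45 to 4.34). At least 1 UMI was found in 38.6% of immobilized and 15.3% of control cells, and after thinning to 2000 UMIs in 33.9% and 12.7%. In the other CAR cells the log2 ratio was 2.34 (304 and 59.8 CPM).

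Of the 9 osteo-primed markers 7 could be measured between the pools, and 4 were past 2-fold higher in the immobilized pool, against 1.86% of all genes measured. Mmp13 (chromosome 9, 7272514 to 7283331, plus strand) stood at 3836 CPM in unmarked immobilized cells and 1062 CPM in unmarked control cells (log2 ratio 1.85, 1.66 to 2.05), with per-cell medians of 8.07 and 0 CP10k and maxima of 177 and 99.2 CP10k. Wif1, a secreted Wnt inhibitor, stood at 433 and 176 CPM (1.29, 0.80 to 1.82), but at a log2 ratio of 0.62 in lane 2. Limch1, an actin-associated protein, stood at 2029 and 908 CPM (1.16, 0.94 to 1.38), and Spp1, osteopontin, at 3225 and 1498 CPM (1.11, 0.93 to 1.28). The matrix protein tenascin C, Tnc, stood at 5195 and 3296 CPM (0.66). In the other CAR cells Mmp13 had a log2 ratio of 0.86, Limch1 of 1.15, Spp1 of 0.07, Wif1 of 0.10 and Tnc of -0.11.

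Tnc, Mmp13, Limch1 and Spp1 are part of the sum that defines the ranges, so their levels within a range are a description. Tnc stood at 9520 and 9534 CPM in high cells (0.00, -0.14 to 0.14) and at 823 and 1220 CPM in low cells (-0.56, -0.91 to -0.23). Mmp13 was higher in the immobilized pool within both ranges, at 7158 and 3594 CPM in high cells (0.99, 0.79 to 1.20) and at 479 and 220 CPM in low cells (1.12, 0.54 to 1.72). Limch1 was higher within both as well, at 3603 and 2802 CPM (0.36, 0.12 to 0.61) and at 439 and 278 CPM (0.66, 0.10 to 1.22). Spp1 was higher in high cells, at 5649 and 3022 CPM (0.90), and stood at 775 and 991 CPM in low cells (-0.35). Fat3, at 258 and 106 CPM over all unmarked cells (1.27, 0.63 to 1.97), stood at 514 and 411 CPM in high cells (0.31, -0.34 to 1.02).

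Further genes ranked highest in the immobilized pool were Npas3, a neuronal transcription factor, at 214 and 58.6 CPM (1.84, 1.05 to 2.78; other CAR cells -0.05), Tmtc2 (1.56; other CAR cells 0.16), Fam78b (1.30; -0.55), Ldlrad4, a dampener of TGF-beta signalling (1.28; 0.41), and the adhesion molecule Sdk2 (1.23; 0.34). Each of them had UMIs in 22 to 40 of the 70 unmarked immobilized cells. The differences between unmarked and other CAR cells in these ratios could not be tested.

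**Figure D5:**
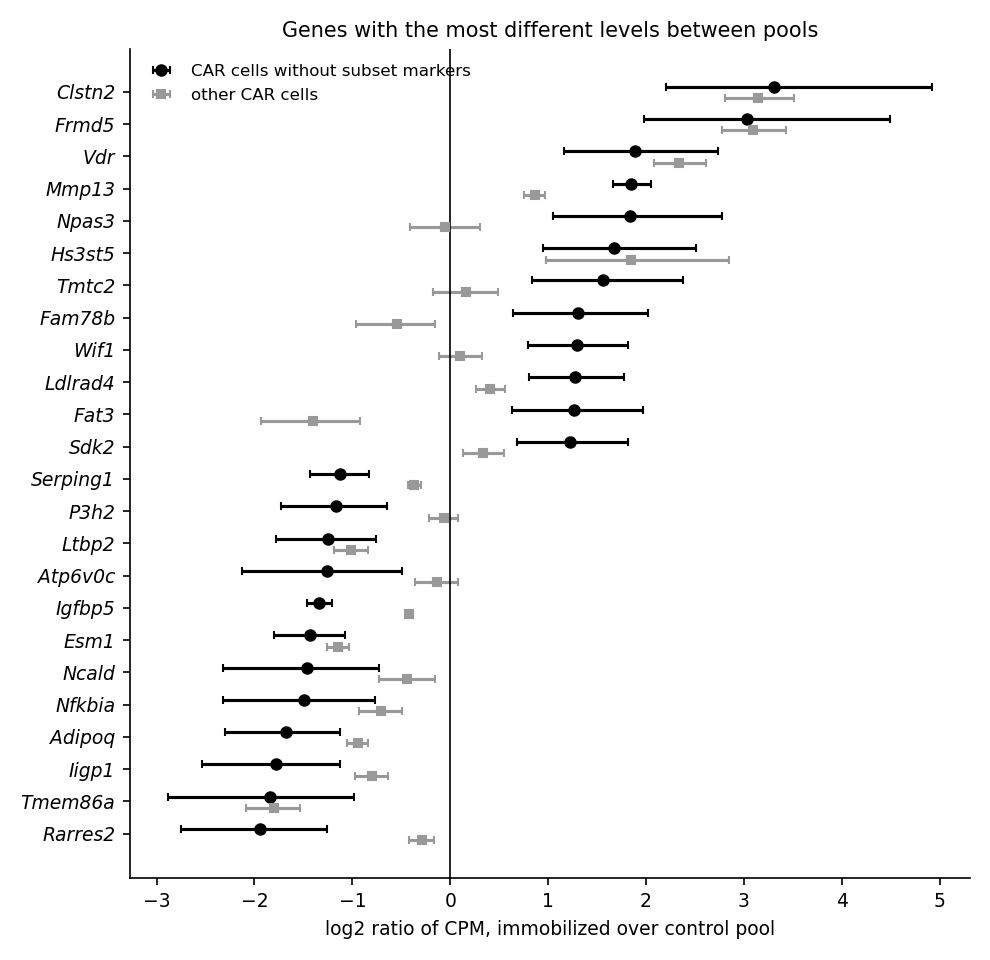
Log2 ratios of CPM, immobilized over control pool (x axis), for the 12 genes ranked highest and the 12 ranked lowest, in CAR cells without subset markers (black circles) and in the other CAR cells (grey squares), with 95% intervals for counting error. Clstn2, Frmd5 and Vdr are high in both classes. Fam78b stands on opposite sides of 0, as does Fat3, whose value in the other CAR cells rests largely on 11 control cells.

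The 12 genes ranked lowest included Igfbp5, Esm1 and Adipoq. Igfbp5 (chromosome 1, 72857932 to 72874884, minus strand), a binding protein of insulin-like growth factors made by marrow stroma, stood at 2633 CPM in unmarked immobilized cells and 6651 CPM in unmarked control cells (log2 ratio -1.34, -1.47 to -1.21). The per-cell medians were 19.1 and 55.7 CP10k, and 59 of 70 and 90 of 98 cells had a UMI. It was lower in both ranges of the osteo-primed sum, by a log2 ratio of -0.94 in high and -1.07 in low cells, and in both sexes, -1.75 in female and -1.03 in male cells. In the other CAR cells the log2 ratio was -0.42 (4693 and 6268 CPM). Esm1, a secreted proteoglycan also known from endothelium, stood at 346 and 934 CPM (-1.43, -1.80 to -1.08), and at -1.15 in the other CAR cells.

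Adipoq stood at 131 and 425 CPM (-1.68, -2.30 to -1.13), with a UMI in 28.6% and 51.0% of unmarked cells, 17.7% and 46.5% after thinning. In the low range alone the log2 ratio was -0.97 (-1.60 to -0.41), close to the -0.95 of the other CAR cells (554 and 1068 CPM). Rarres2, the adipokine chemerin, stood at 79.4 and 311 CPM (-1.94, -2.75 to -1.25; other CAR cells -0.29), and Serping1, an inhibitor of complement, at 528 and 1157 CPM (-1.13; -0.37). The latent TGF-beta binding protein Ltbp2 had -1.25, the collagen hydroxylase P3h2 -1.17, the interferon-induced GTPase Iigp1 -1.78, the NF-kappaB inhibitor Nfkbia -1.49, the plasmalogen enzyme Tmem86a -1.84, the calcium sensor Ncald -1.47 and the proton pump subunit Atp6v0c -1.26. All 12 were also below 0 in female and in male cells taken alone. The interval included 0 for Nfkbia, Ncald, Atp6v0c, Ltbp2 and P3h2 in female cells. In male cells it did so for Atp6v0c and for Tmem86a, which had 1 and 3 UMIs there. Lane 2 kept the signs, with a larger ratio for Nfkbia (-1.77) and a smaller one for each of the others. Ncald (-0.44), Tmem86a (-0.94), Rarres2 (-1.23) and Serping1 (-0.77) moved beyond their lane 1 intervals. P3h2 (-0.75), Ltbp2 (-0.83) and Atp6v0c (-0.87) stayed within theirs.

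Tnfsf11 itself (chromosome 14, 78277445 to 78308043, minus strand) had 38 UMIs (151 CPM) in 22 of 70 unmarked immobilized cells and 31 UMIs (114 CPM) in 16 of 98 unmarked control cells, a log2 ratio of 0.41 whose interval spans 0 (-0.31 to 1.14). The sign turned in lane 2, at -0.13, and differed between the sexes, with 10 and 24 UMIs in female cells (-0.43) and 21 and 7 in male cells (1.24). At least 1 UMI was found in 31.4% of immobilized (20.9 to 43.6) and 16.3% of control cells (9.63 to 25.2), and after thinning in 22.6% and 11.3%. As a background of free RNA, 0 of 42 and 0 of 34 cells rich in haematopoietic markers had a UMI of Tnfsf11, at median depths of 1397 and 3267.5 UMIs. The intervals allow shares of up to 8.41% and 10.3%. After thinning only 14 and 21 of these cells remained, again with 0, and the limits were 23.2% and 16.1%. At equal depth this background therefore does not part from the shares of 22.6% and 11.3%. Tnfsf11 was found in both ranges, with 15 and 2 UMIs in high and 23 and 29 in low cells. The other CAR cells stood at 221 and 93.8 CPM. A UMI of both Tnfsf11 and Vdr was present in 6 of 70 immobilized and 1 of 98 control cells. The reporter tdTomato had 18 and 9 UMIs.

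Blood-forming niche factors were close to level between the pools. Of 16 such genes 8 were measured, none past 2-fold higher and Esm1 alone past 2-fold lower, with a median log2 ratio of -0.17. Kitl stood at 2224 and 2747 CPM (-0.30), Angpt1 at 735 and 787 CPM (-0.10) and Vcam1, an adhesion molecule that holds blood progenitors, at 882 and 1022 CPM (-0.21). Igf1 stood at 687 and 414 CPM (0.73, 0.38 to 1.09) and Csf1, the macrophage and osteoclast growth factor, at 616 and 454 CPM (0.44, 0.09 to 0.79), whereas Il34, a second ligand of the same receptor, stood at 119 and 220 CPM (-0.87, -1.57 to -0.23). Cxcl12, a gene of the rule, stood at 10099 and 13836 CPM (-0.45). Of the 14 CAR markers 13 were measured, 11 of them below 0, with a median of -0.25 against -0.20 in the other CAR cells.

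Of 16 stromal transcription factors 7 were measured and none was past 2-fold in either direction. Runx2 stood at 3225 and 2728 CPM (0.24), Ebf3, which maintains CAR identity, at 2951 and 2684 CPM (0.14), Ebf1 at 3439 and 4369 CPM (-0.35) and Pparg, the regulator of fat cell genes, at 143 and 249 CPM (-0.79, -1.43 to -0.20). Of the 18 lipid genes outside the rule 5 were measured, and 4 were below 0: beside Adipoq and Pparg these were Lpl at 1076 and 1798 CPM (-0.74, -0.96 to -0.52) and Apoe at 1227 and 1941 CPM (-0.66, -0.87 to -0.46). Within the ranges of the osteo-primed sum Lpl had a log2 ratio of -0.61 (-1.57 to 0.38) in high and -0.21 (-0.44 to 0.01) in low cells. Ebf3 had -0.36 (-0.65 to -0.07) in high and 0.54 (0.36 to 0.71) in low cells, so its 0.14 joins opposite signs.

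Among receptors that lie upstream of Tnfsf11, 6 of 13 were measured and Vdr alone was past 2-fold. The LIF receptor Lifr stood at 3634 and 2633 CPM (0.46, 0.32 to 0.61), the parathyroid hormone receptor Pth1r at 266 and 198 CPM (0.43, -0.11 to 0.97) and the glucocorticoid receptor Nr3c1 at 179 and 275 CPM (-0.61, -1.19 to -0.07). Of 27 genes of cyclic AMP signalling 5 were measured, none past 2-fold, with Pde7b, a cyclic AMP phosphodiesterase, highest at 1009 and 593 CPM (0.76, 0.48 to 1.06). Of 12 osteoclast regulators 3 were measured, with Slit3, an axon guidance ligand made by bone cells, at 1724 and 1033 CPM (0.74, 0.52 to 0.96). Of 14 collagen chains 9 were measured, none past 2-fold, with a median of -0.22. Of the 19 Wnt genes 5 were measured, Wif1 past 2-fold higher and the Wnt-binding Sfrp4 past 2-fold lower, at 179 and 374 CPM (-1.05, -1.60 to -0.54).

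The other lists gave few measured genes. Of 13 genes of the IGF axis 7 were measured, with Igfbp5 the 1 past 2-fold, and Igfbp4 stood at 1882 and 2164 CPM (-0.20). Of 17 genes of neural adhesion and ion channels 7 were measured, with Clstn2 and Frmd5 past 2-fold higher, and of 14 proteases and their inhibitors 5, with Mmp13 past 2-fold higher and the aggrecan-cleaving Adamts5 at 361 and 183 CPM (0.97, 0.47 to 1.51). No gene was past 2-fold among 7 measured TGF-beta and BMP genes, 3 mechanosensing genes, 3 glucocorticoid and clock genes, 3 genes of the unfolded protein response, 2 heat shock genes or 2 interferon-induced genes. Their median log2 ratios, in that order, were 0.09, 0.16, -0.63, -0.42, -0.70 and -0.88 in lane 1 and -0.02, 0.78, -0.21, -0.06, -1.16 and -0.48 in lane 2, so they varied widely between runs of the same cells. None of 12 chemokines and gp130 cytokines was measured.

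Of 9 osteoblast markers 5 were measured, and the 2 past 2-fold lower in the immobilized pool, Bglap (294 and 1194 CPM, -2.01) and Bglap2 (111 and 370 CPM, -1.72), are both genes of the rule. Of the 3 outside it, Ibsp, bone sialoprotein, stood at 2887 and 4666 CPM (-0.69, -0.83 to -0.56; -0.48 in lane 2). Col1a1, a chain of type I collagen, stood at 929 and 1124 CPM (-0.27, -0.53 to -0.02; -0.09 in lane 2). Phex, an endopeptidase of osteocytes, stood at 171 and 256 CPM (-0.58, -1.17 to -0.02; 0.08 in lane 2). Bglap also reached 54.8% of the cells rich in haematopoietic markers in the immobilized and 88.2% in the control pool, cells that should not make it, and the part of free RNA in these ratios was not tested.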

How the data were processed

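Values start from raw UMI counts of genes in barcodes, which the authors deposited as matrices. Cell Ranger 7.0.0 made them, per the file headers, on mm10, per the submitters' processing notes. No source used here names the annotation release. Barcode and feature lists were deposited as text. Of 32286 feature identifiers 32235 matched GENCODE vM21. Depth ranged from 9960011 to 10860328 UMIs per library.

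In lane 1, barcodes needed 500 genes or more and a mitochondrial share below 10%, and the rule of the report was applied. UMIs were summed over the cells of a class and pool and scaled to CPM by their total; levels carry exact Poisson, shares exact Clopper-Pearson and ratios exact conditional binomial 95% intervals, and log2 ratios a pseudocount of 0.5 counts. Genes with 50 UMIs or more in at least 1 class compared count as measured, and past 2-fold is the only call. With 1 pool per group no test was made and no p-value is given. Scrublet in scanpy 1.11.5 called doublets, 7 in the immobilized pool (0.400% of barcodes) and 21 in the control pool (1.30%); they were kept. Sex was called per cell from Xist and Y-linked UMIs. Free RNA can add UMIs to any cell. Python 3.11.15, numpy 2.4.6, scipy 1.17.1 and pandas 2.3.3 were used, and the ratio intervals were tested on simulated data.

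Ranked genes are the 12 highest and 12 lowest between pools and the 10 highest and 10 lowest against the other CAR cells. They needed 50 UMIs, a UMI in 10% of the cells, an interval that leaves out equality, and an unchanged sign in lane 2 and with median-ratio scaling. Ribosomal, mitochondrial, immunoglobulin, haemoglobin, Gm- and Rik-named genes, granulocyte and erythroid markers and the genes of the rule were not ranked. Xist and the Y-linked genes used to call sex were also left out, while other X-linked genes such as Gria3 could be ranked. To these were added the label genes, Tnfsf11, tdTomato, and up to 6 genes of each list, the most abundant or those past 2-fold. The cells, lists and ranking rule were chosen with earlier results of these data known. Genes named only in the account of the ranges of the osteo-primed sum were chosen after their values were seen. Alternatives covered lane, gate, limits, depth, sex, doublets, scaling, count minimum and averaging over cells.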

Additional observations from a re-analysis of the deposited data

Results flagged for a closer look

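Fam78b and Fat3 had ratios of opposite sign in unmarked and in other CAR cells. Fam78b had a log2 ratio, immobilized over control, of 1.30 in unmarked and -0.55 (interval -0.96 to -0.15) in other CAR cells, 1.85 apart, with 62 and 27 UMIs in unmarked cells. Fat3 had 1.27 in unmarked and -1.40 (-1.93 to -0.93) in other CAR cells, 2.67 apart, with 65 and 29 UMIs in unmarked cells, nearly all in cells at 100 CP10k or more of osteo-primed markers. In the other CAR cells of the control pool 144 of 171 Fat3 UMIs lay in 11 of the 450 cells under that limit, and at or above it Fat3 stood at 121 CPM in the immobilized and 64.7 CPM in the control pool, so the opposite sign rests on few cells. The difference was not tested for either gene, since each group was 1 pool.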

How the results depend on the processing

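No paired analysis was possible because each group was 1 pool, and the shared lane numbers are repeat runs of the same cells.

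The share of kept cells (-1.87 percentage points, immobilized minus control) became -4.44 with limits of 6 UMIs and 20 CP10k and -3.86 in male cells. The share of CAR cells (2.68 points) became -3.00 with a Cxcl12 gate of 100 CP10k. The count past 2-fold higher between pools (21) became 10 with that gate, 44 with a gate of 25, 11 without any subset UMI, 39 with the wider limits, 9 in female cells, 356 with a minimum of 10 UMIs, 39 as a mean over cells and 10 without cells at 100 CP10k of osteo-primed markers. The count past 2-fold lower (25) became 46 with the gate of 25, 4 without any subset UMI, 55 with the wider limits, 41 after thinning, 14 in male cells, 450 with the minimum of 10 and 12 at 3000 UMIs or more. Tnfsf11 (0.41) became 1.74 without any subset UMI, -0.43 in female and 1.24 in male cells.

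The osteo-primed sum between pools (1.06) became 1.20 in lane 2 (without replicate 1), 1.32 with the gate of 100, 0.90 with the wider limits, 1.24 in female and 0.80 in male cells, 0.91 with limits of 6 CP10k and 0.76 at 3000 UMIs or more. Over the other CAR cells it was 1.30 in the immobilized and 0.46 in the control pool. These became 1.20 and 0.20 in lane 2, 1.15 and 0.26 with a mitochondrial limit of 5%, 1.65 and 0.90 with the gate of 25, 1.24 and 0.023 with the gate of 100, 1.58 and 0.92 without any subset UMI, 0.79 and 0.063 with the wider limits, 1.02 and 0.011 after thinning, 1.90 and 0.69 in female cells, 1.12 and 0.29 under median-ratio scaling, 1.23 and 0.20 as a mean over cells, 1.55 and 0.81 with limits of 6 CP10k and 1.40 and 0.87 at 3000 UMIs or more. The immobilized value alone moved to 1.36 without doublets and 1.19 in male cells. The control values of 0.023 and 0.011 had intervals that include 0 (-0.072 to 0.12 and -0.068 to 0.088).

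The counts past 2-fold higher and lower than other CAR cells in both pools (32 and 91) became 196 and 243 without any subset UMI, 12 and 55 with the wider limits, 4 and 12 after thinning, 10 and 39 in female cells, 20 and 173 under median-ratio scaling and 143 and 252 with the minimum of 10. The higher count alone moved to 18 in lane 2, 12 with the gate of 100, 19 as a mean over cells, 55 with limits of 6 CP10k, 15 without cells at 100 CP10k of osteo-primed markers and 68 at 3000 UMIs or more.

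Signs turned as follows. Between pools, female cells gave Kitl 0.19, Clstn2 -0.79, Frmd5 -0.056 and Hs3st5 -0.35, cells without any subset UMI gave Frmd5 -0.63, and Fat3 was -0.87 without cells at 100 CP10k of osteo-primed markers. Over the other CAR cells in the control pool, Fat3 was -1.66 with the gate of 100, -0.54 with the wider limits and -0.25 after thinning. Without any subset UMI, Slc35f3 was -1.25 and Gria3 0.14 in the control and Phlda1 0.077 in the immobilized pool. Female cells gave Gria3 1.501 and Phlda1 0.97 in the immobilized and Serpina3n 0.55 in the control pool. Without cells at 100 CP10k of osteo-primed markers, the immobilized pool gave Fat3 -2.62, Angpt4 -1.57, Ppfibp2 -2.12, Cadm1 -1.34, Ptgis -0.36, Rcan2 -0.70, Sgms2 -0.39 and Lrp4 -0.48, and the control pool Fat3 -3.15, Ppfibp2 -1.34 and Cadm1 -1.39. Several of these rest on 0 to 2 UMIs and on the pseudocount. The cause of these shifts was not tested. Of 1471 single-gene values under alternatives, 1226 stayed within the interval of the reported value, 219 moved beyond it and 26 changed sign where the reported interval had left out 0. At this depth 1132 genes reached 50 UMIs, so most lists were measured in part. Limits of 6 CP10k and those on osteo-primed markers, erythroid markers and 3000 UMIs were chosen after seeing the data.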

Other observations

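Of the immediate early genes, which tissue dissociation and signalling both induce, 6 of 18 were measured in unmarked cells, none past 2-fold between the pools, with a median log2 ratio, immobilized over control, of 0.20 in lane 1 and -0.37 in lane 2. In the other CAR cells 16 were measured and 11 were past 2-fold lower in the immobilized pool, against 1.34% of all 7704 genes measured there, with a median of -1.25. Fos stood at 500 CPM in unmarked immobilized and 333 CPM in unmarked control cells (0.58, 0.19 to 0.99), and its log2 ratio was -0.45 in lane 2 and -1.35 in the other CAR cells. The lanes thus gave opposite signs for Fos in unmarked cells, and no difference from the other CAR cells was tested.

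The interferon-induced chemokines Cxcl9 and Cxcl10 had 0 UMIs in unmarked immobilized cells and 258 and 91 UMIs in the other immobilized CAR cells, at least 12.2-fold and 4.31-fold lower with a floor of 3 counts over the pool. In unmarked control cells they had 33 and 9 UMIs, against 765 and 195 in the other control CAR cells (log2 ratios -1.24 and -1.09).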
